A study of Mus musculus with 20 samples.

Results

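In kidneys of Balb/c mice, 11 genes of the proteasome had lower mRNA levels in females than in males in the main fit. This list was not settled. With a covariate for RNA quality, which itself moved with sex, only Psmb5 still passed. When the prefixes on the animal labels were fitted instead, Psmb5, Psmd1, Psmd4 and Psmd10 remained of the 11. Doxorubicin moved no proteasome gene past the test, but it moved only 0.0646% of all named genes in males and 0.0242% in females. The proteasome genes were all genes whose symbol in the platform annotation starts with Psm, a letter from a to g and a digit. There were 48 of them among 12393 named genes on the Affymetrix mouse 430A 2.0 array. They had 85 probe sets that stand for a single gene, and each gene was represented by its brightest probe set, which is the probe set with the highest mean over all 20 kidneys. The 48 genes fell into 8 alpha and 7 beta subunits of the core, 3 inducible core subunits of the immunoproteasome and 6 ATPases of the base. A further 14 were Psmd genes of the cap or its assembly, 3 were activators, 1 was an inhibitor and 4 were assembly chaperones. Psmc3ip and Psme3ip1 match by symbol alone, encode partner proteins, and were kept apart as a class of 2.

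RNA of whole kidney was measured in 5 control males, 5 control females, 5 doxorubicin injected males and 5 doxorubicin injected females. All mice were Balb/c and about 10 weeks old, and the injected mice received 12 mg/kg of doxorubicin intravenously and were studied at day 14. Doxorubicin is a cytotoxic drug that injures the podocyte of the glomerulus, while most RNA of a whole kidney comes from tubules, and a single day was studied. Animals are named here by a letter for sex and the number on their label, as in M30-1 or F10-2. Every level is a log2 intensity, and every difference is a log2 difference, female minus male or doxorubicin minus control, so that a difference of 1 would be a doubling. Whole kidneys were measured, so that fewer cells of a type and less RNA per cell cannot be told apart.

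The proteasome is the protease that degrades proteins tagged with ubiquitin. Its barrel-shaped core is built of rings of alpha subunits, which gate the entrance, and rings of beta subunits, 3 of which carry the catalytic sites. A cap at the end of the barrel binds the ubiquitin chain, removes it, and unfolds the protein with a ring of ATPases that threads it into the core. Interferon induces alternative catalytic subunits that replace the standard ones and form the immunoproteasome, which trims peptides for antigen presentation, and a separate set of activators can take the place of the cap. In the kidney, protein turnover by this route runs in all cell types, and immune cells hold much immunoproteasome.

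The arrays carried the markers of kidney. Umod, made by the thick ascending limb, had group means of 14.98 to 15.10, and Slc34a1, the phosphate carrier of the proximal tubule, 13.63 to 13.94. The T cell marker Cd3e and the B cell marker Cd79a lay under the background level of 2.84 in all groups. They were the only 2 of 10 leukocyte markers to do so. RNA quality moved with sex. The 3′ minus 5′ difference of the Actb control probe sets, which grows as RNA is degraded, was 1.42 to 1.85 in control males, 1.11 to 3.23 in control females, 1.51 to 1.89 in injected males and 2.28 to 3.11 in injected females, so after doxorubicin the sexes did not overlap in it. The control female FNo5 and the injected male M30-4 stood apart from their groups over all genes, and counts are given with and without them.

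Part of the proteasome genes were lower in female than in male kidneys. Averaged over control and injected mice, 11 of the 48 genes (22.9%) were lower in females by limma at an adjusted p under 0.003 and 0 were higher, where 3.12% of all named genes were lower and 3.47% higher. Those 11 were Psmb1, Psmb2, Psmb4, Psmb5, Psmb7, Psmc1, Psmd1, Psmd4, Psmd7, Psmd10 and Psmd13. At an unadjusted p under 0.05, 31 genes were lower and 4 higher, against 11.5% and 19.6% of all named genes. The mean was lower in females for 39 of 48 genes, and for 43.1% of all named genes. The median difference was -0.27 over the 48 genes and 0.00 over all named genes. Of the 31 genes of the standard core, the base ring and the cap, without Psma8 of the testis and the chaperones Psmd5, Psmd9 and Psmd10, 29 had a lower mean in females and 10 passed the test. This set of 31 was defined after values were seen.

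This count changed with an RNA quality covariate and with single arrays, and the genes called changed with a block. With the Actb 3′ minus 5′ difference as a covariate, 1 of the 48 genes passed, which was Psmb5, with a median of -0.20 and 42 negative differences. That covariate itself moves with sex, and the part of RNA quality in the differences cannot be told apart from sex here. The prefix of the animal number (10, 30 or none) moves with sex in part too. All animals with the prefix 10 are female, and F30-6 is the only female with the prefix 30. Prefix and sex can therefore not be fully told apart. With this prefix as a block, 11 genes were lower and 1 higher. Of the 11 named above, Psmb5, Psmd1, Psmd4 and Psmd10 passed in that fit, the other 7 did not (adjusted p of 0.0044 for Psmb1 to 0.049 for Psmb2), and Psma2, Psma4, Psma5, Psma7, Psmc2, Psmd11 and Psmd12 were lower and Psmd9 higher. With block and covariate together, Psmc2 and Psmd1 passed and Psmb5 did not (adjusted p = 0.00822). Without FNo5 and M30-4 the count was 22 lower and 1 higher, and it was 6 without F10-2 or without M7. Shares over all named genes were taken in the main fit only. Counts from other fits, here and below, therefore cannot be set against the whole array.

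**Figure D1:**
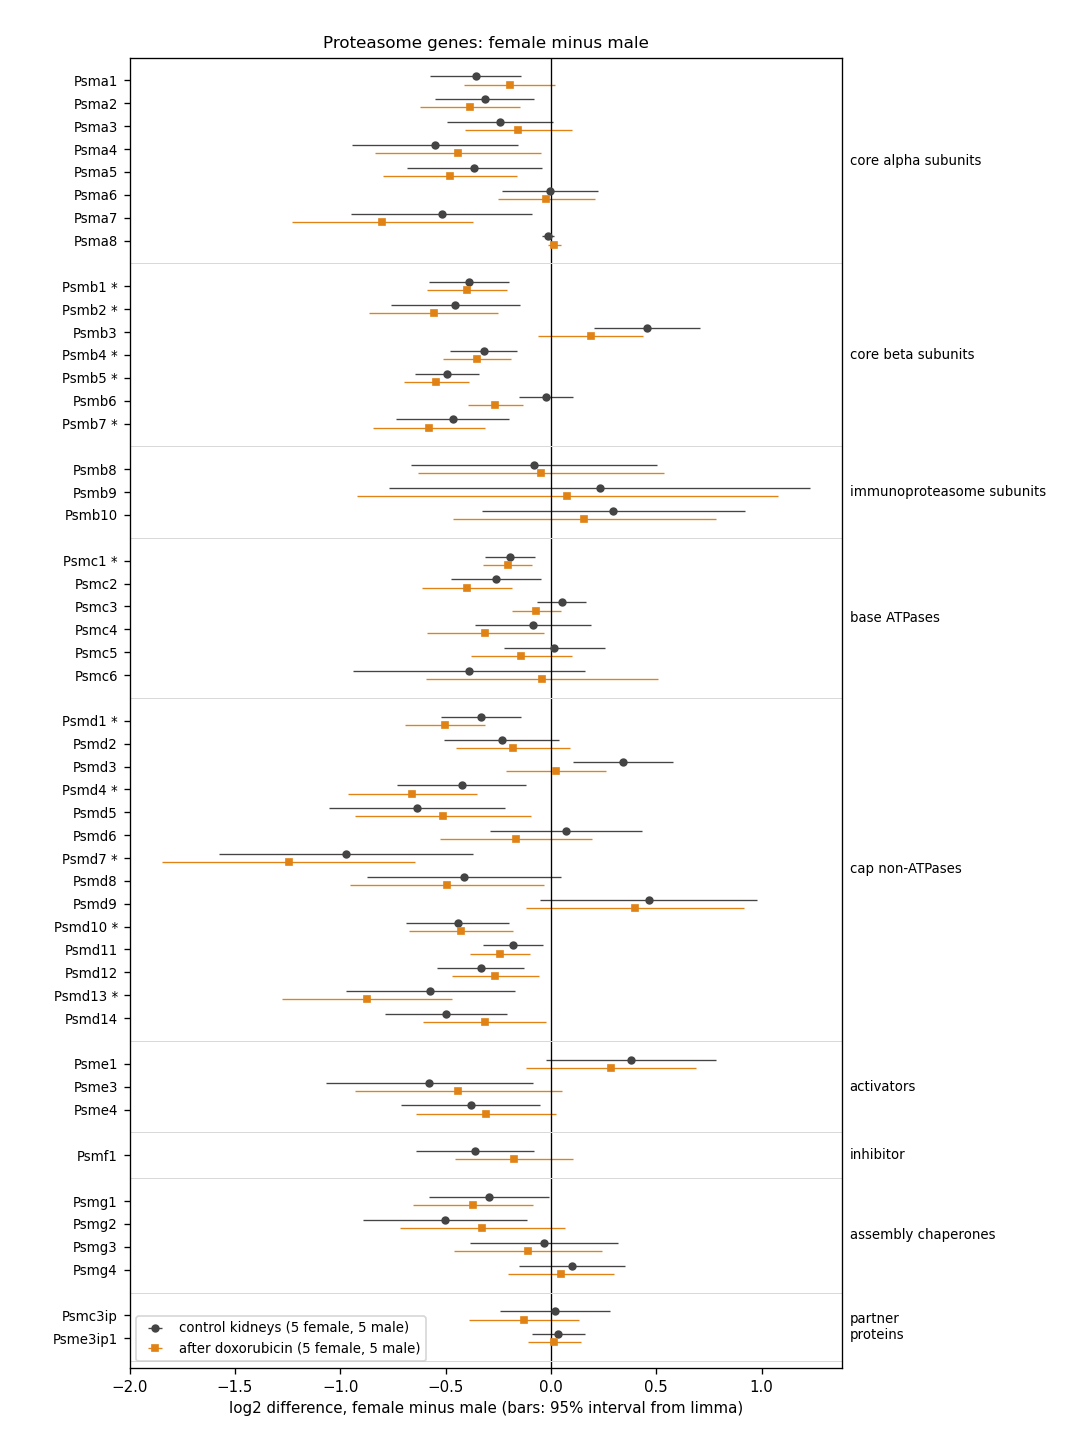
Female minus male difference (log2) of each of the 48 proteasome genes by class, in control mice (circles) and doxorubicin injected mice (squares), with 95% intervals; a star marks the 11 genes that passed the test averaged over both conditions. Most points of the core, base and cap lie under 0. Psmb3, Psmb9, Psmb10, Psmd3, Psmd9, Psme1, Psmg4 and Psme3ip1 lie above 0 in both conditions.

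Of the 7 standard beta subunits, Psmb1, Psmb2, Psmb4, Psmb5 and Psmb7 were lower in females, against 3.12% of all named genes. The median difference over the class was -0.39. With the number prefix as a block, Psmb5 alone of them passed. Psmb5 encodes the subunit with chymotrypsin-like activity, which is the target of proteasome inhibitor drugs. Its levels were 12.24, 12.30, 12.24, 12.12 and 12.25 in control males and 11.68, 11.76, 11.62, 11.81 and 11.82 in control females. They were 12.04, 12.55, 12.20, 12.29 and 12.12 in injected males and 11.68, 11.59, 11.79, 11.71 and 11.71 in injected females. All 10 females lay below all 10 males, which held for no other member by its brightest probe set. Over all named genes, 1.23% had all females below and 1.11% all females above. The averaged difference of Psmb5 was -0.52 ± 0.051 (SE; limma, adjusted p = 2.22e-06), a 1.43-fold lower intensity in females, and it passed when any one of the 20 arrays was left out.

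Psmb7, the subunit with trypsin-like activity, was 12.48, 12.81, 12.55, 12.67 and 12.82 in control males and 12.12, 11.92, 11.95, 12.25 and 12.74 in control females. It was 12.53, 12.74, 12.45, 12.65 and 12.66 in injected males and 12.07, 12.06, 12.13, 11.78 and 12.09 in injected females. After doxorubicin the sexes did not overlap, while among controls FNo5 lay inside the male range. The averaged difference was -0.52 (limma, adjusted p = 0.000627), 1.44-fold lower. Psmb6, the subunit with caspase-like activity, did not pass: its difference was -0.02 in control mice and -0.26 in injected mice (limma, adjusted p = 0.014), and the averaged value was -0.14 (adjusted p = 0.0293).

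Of the 4 beta subunits without a catalytic site, 3 passed as lower, against 3.12% of all named genes. Psmb1 had means of 12.42 ± 0.09 and 12.03 ± 0.21 (SD, n = 5) in control males and females, and 12.43 ± 0.12 and 12.03 ± 0.12 after injection, an averaged difference of -0.39 (limma, adjusted p = 0.000361). Psmb4 (-0.34, adjusted p = 0.000348) and Psmb2 (-0.51, adjusted p = 0.00247) were lower as well. Psmb2 passed in 4 of the 20 fits that each left out 1 array, while Psmb1, Psmb4 and Psmb7 passed in 20 of 20. Psmb3 was the exception in direction, at 0.32 (adjusted p = 0.0137), with control males at 11.47 to 11.78 and control females at 11.67 to 12.40. A second probe set of Psmb3 gave the opposite sign, -0.22, so the gene has no settled direction here.

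**Figure D2:**
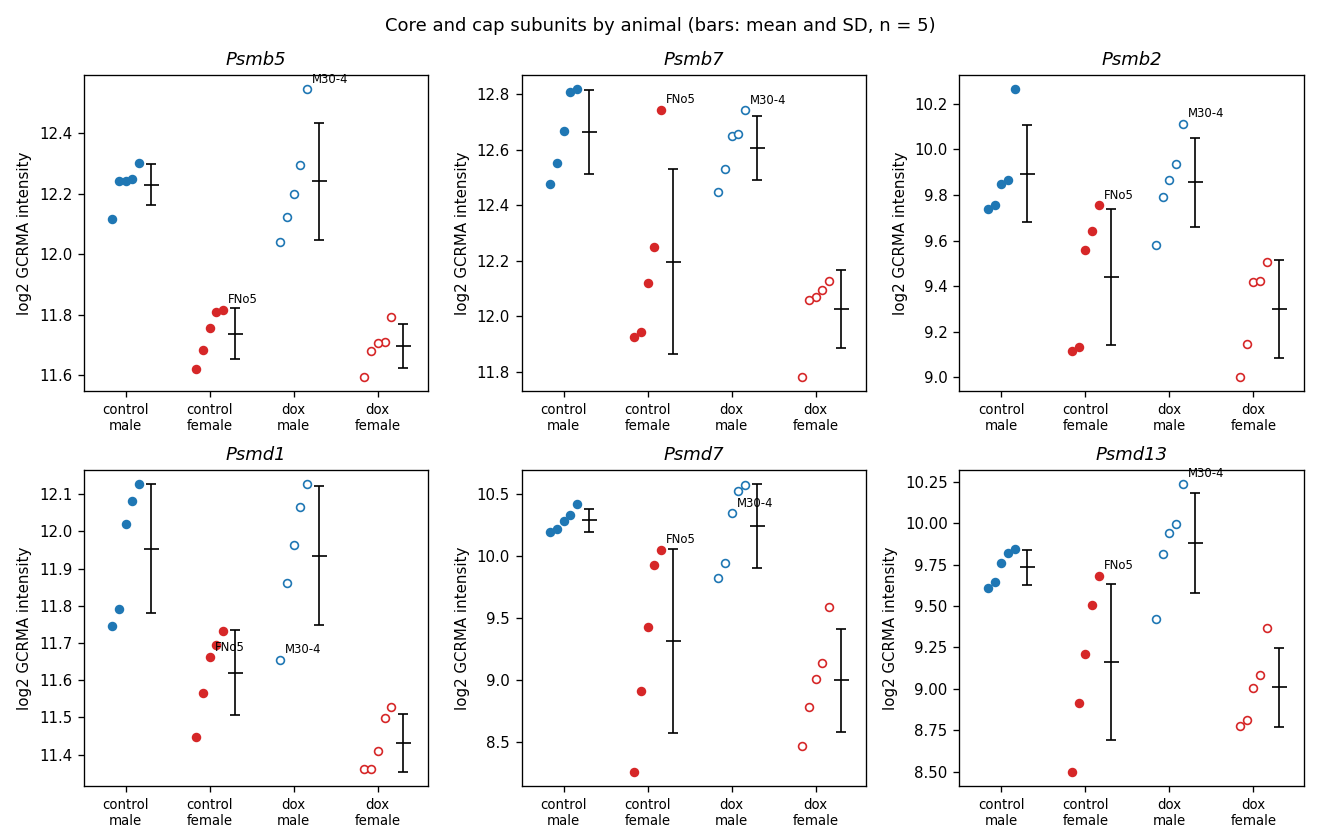
Level (log2 intensity) of Psmb5, Psmb7, Psmb2, Psmd1, Psmd7 and Psmd13 in each animal, with group mean and SD; filled points are control and open points doxorubicin injected mice. Psmb5 separates all 10 females from all 10 males, while Psmd7 ranges from 8.26 to 10.05 in control females.

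The start regions of the catalytic subunits are shown because the standard and the inducible subunits are known for different regulation; Psmb10, whose window held no match, and Psmb7 are not shown. Each line is the 250 bases before the start of transcription, 5′ to 3′ on the gene's strand, from RefSeq on build GRCm38.p6, with a matched motif in capitals. Psmb5 lies at chr14:54617996-54618245 on the minus strand and Psmb6 at chr11:70525107-70525356 on the plus strand, and both hold a match to the antioxidant response element, TGACNNNGC. Psmb8 lies at chr17:34197945-34198194 on the plus strand with a match to the gamma-activated site, TTCNNNGAA, and Psmb9 at chr17:34187331-34187580 on the minus strand with a CCAAT box in reverse.
Psmb5: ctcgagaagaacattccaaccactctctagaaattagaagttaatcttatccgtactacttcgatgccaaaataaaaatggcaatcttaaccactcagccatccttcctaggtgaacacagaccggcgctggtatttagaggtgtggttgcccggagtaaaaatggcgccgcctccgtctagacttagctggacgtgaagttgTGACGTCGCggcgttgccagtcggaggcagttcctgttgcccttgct
Psmb6: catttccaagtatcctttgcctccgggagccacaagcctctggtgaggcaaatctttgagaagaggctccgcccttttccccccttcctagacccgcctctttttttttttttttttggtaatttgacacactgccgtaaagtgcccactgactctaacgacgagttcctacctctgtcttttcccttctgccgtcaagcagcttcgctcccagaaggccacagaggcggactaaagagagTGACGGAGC
Psmb8: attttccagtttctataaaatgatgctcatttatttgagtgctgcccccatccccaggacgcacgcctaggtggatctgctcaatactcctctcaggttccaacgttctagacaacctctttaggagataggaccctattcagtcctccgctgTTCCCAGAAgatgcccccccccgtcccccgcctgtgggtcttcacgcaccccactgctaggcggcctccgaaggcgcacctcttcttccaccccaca
Psmb9: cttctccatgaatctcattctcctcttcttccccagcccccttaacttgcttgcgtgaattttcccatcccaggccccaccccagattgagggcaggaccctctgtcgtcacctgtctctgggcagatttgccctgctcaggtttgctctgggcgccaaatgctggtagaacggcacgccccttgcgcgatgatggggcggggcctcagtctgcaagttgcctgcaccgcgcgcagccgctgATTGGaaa

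The table held 43 windows of 40 of the 48 genes. Searched on both strands in windows of 300 bases, the antioxidant response element matched in 14.0% of these windows and 12.4% of all 32851 promoters, and CCAAT in 34.9% and 37.4%. The interferon-stimulated response element (GAAA, 2 bases of any kind, GAAA) matched in 11.6% against 3.44%, in the windows of Psmb3, Psmd4, Psmd9, Psme1 and Psmg4. The gamma-activated site matched in 6.98% against 8.3%. These are matches of letters and were not tested as binding sites.

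No alpha subunit passed the test by limma, though 6 of the 8 were lower in females at an unadjusted p under 0.05, against 11.5% of all named genes. With the number prefix as a block, Psma2, Psma4, Psma5 and Psma7 passed; median centring called Psma2, and a filter to the upper 60% of probe sets called Psma7. The class median was -0.31. Psma7 had the largest difference of the class, -0.66 (limma, adjusted p = 0.00434), with lowest, median and highest levels of 11.66, 11.72 and 12.41 in control males, 10.94, 11.43 and 12.09 in control females, 11.61, 12.22 and 12.37 in injected males, and 11.03, 11.34 and 11.54 in injected females. The sexes overlapped among controls, where FNo5 was the highest female, and did not overlap after injection. Psma2 (-0.35, adjusted p = 0.00552), Psma5 (-0.42, adjusted p = 0.0116), Psma1 (-0.28, adjusted p = 0.0142) and Psma4 (-0.50, adjusted p = 0.015) also missed the threshold of 0.003. Psma6 was at -0.01, though its second probe set, which is dimmer, was at -0.25 (adjusted p = 0.0139). Psma8, an alpha subunit of the testis, was under background in all groups, at 2.27 to 2.29.

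In the base ring, 1 of 6 ATPases passed as lower, against 3.12% of all named genes, and the class median was -0.20. Psmc1 was lower in females (-0.20; limma, adjusted p = 0.00206), 1.15-fold, with means of 11.13 and 10.94 in control males and females and 11.15 and 10.95 after injection. It passed in 5 of the 20 fits that each left out 1 array. Psmc2 had a larger difference, -0.33, and missed the threshold (adjusted p = 0.00436), while Psmc3 was at -0.01 and Psmc5 at -0.06.

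Of the 14 further Psmd genes, which include the chaperones Psmd5, Psmd9 and Psmd10, 5 were lower in females and none was higher. Of all named genes, 3.12% were lower and 3.47% higher. The class median was -0.41. Psmd1, the large scaffold subunit of the base, was 12.08, 12.02, 11.75, 11.79 and 12.13 in control males and 11.70, 11.73, 11.45, 11.56 and 11.66 in control females. It was 11.86, 11.66, 12.07, 12.13 and 11.96 in injected males and 11.41, 11.50, 11.53, 11.36 and 11.36 in injected females. The sexes did not overlap in either condition, and the averaged difference was -0.42 (limma, adjusted p = 0.000215), 1.34-fold lower. Psmd4, a receptor for ubiquitin chains, was lower (-0.54, adjusted p = 0.00151), with means of 11.74 and 11.32 in control males and females and 11.97 and 11.31 after injection. Psmd10, also known as gankyrin, is an assembly chaperone of the base and the only member on the X chromosome, and it was lower (-0.44, adjusted p = 0.00145), with means of 9.86 and 9.42 in control males and females and 9.83 and 9.40 after injection.

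Among the lid subunits, which hold the deubiquitinating enzyme in place, 7 of 8 had a lower mean in females and 2 passed as lower. Of all named genes, 43.1% had a lower mean and 3.12% passed as lower. Psmd7, the partner of the deubiquitinating enzyme, was 10.22, 10.42, 10.28, 10.19 and 10.33 in control males and 9.92, 8.26, 8.91, 9.43 and 10.05 in control females. It was 9.82, 10.34, 9.94, 10.57 and 10.52 in injected males and 8.78, 9.14, 9.58, 8.47 and 9.01 in injected females. No female reached the males of her condition, and the averaged difference of -1.11 ± 0.201 (SE; limma, adjusted p = 0.00107), 2.16-fold, was the largest of the 48. The lowest levels of Psmd7 were in F10-1 (8.26) and F10-3 (8.47), whose Actb 3′ minus 5′ differences were 3.23 and 3.11, and the highest female level was in FNo5 (10.05), where it was 1.11. With that measure as a covariate the difference of Psmd7 was -0.39 (adjusted p = 0.149). Psmd13, another lid subunit, was 9.85, 9.76, 9.64, 9.61 and 9.82 in control males and 9.51, 8.50, 8.91, 9.21 and 9.68 in control females, of which FNo5 overlapped the males. It was 9.42, 10.24, 9.94, 9.99 and 9.81 in injected males and 8.81, 8.78, 9.36, 9.08 and 9.00 in injected females, without overlap. Its averaged difference was -0.72 (adjusted p = 0.00132), 1.65-fold.

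Psmd14, the deubiquitinating enzyme itself, had a difference of -0.41 (limma, adjusted p = 0.00805) and did not pass. Its lowest, median and highest levels were 11.34, 11.40 and 11.73 in control males and 10.87, 11.02 and 11.06 in control females, with no overlap. In injected mice, M30-4, at 10.68, was below all females (10.93 to 11.10), and the other injected males reached 11.73. Psmd9, a chaperone of the base, had the highest positive value of the Psmd genes, 0.43 (adjusted p = 0.1), and Psmd3 and Psmd6 were at 0.18 and -0.05.

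None of the activators, the inhibitor or the assembly chaperones passed. Psme4, an activator known from histone turnover, was at -0.35 (limma, adjusted p = 0.0412). Control males were at 11.99 to 12.15 and control females at 11.60 to 11.81 without overlap, while among injected males M30-4 was at 11.16, below all injected females. Psme3, the nuclear activator, was at -0.51 (adjusted p = 0.0417). The inhibitor Psmf1 was at -0.27, and the 4 assembly chaperones Psmg1, Psmg2, Psmg3 and Psmg4 were at -0.33, -0.41, -0.07 and 0.07. The partner genes Psmc3ip and Psme3ip1 were at -0.06 and 0.02.

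A further 37 probe sets of 21 members were dimmer than the ones used, and 22 of them lay more than 1 log2 unit above background. Of those 22, 17 had a lower mean in females, and 5 passed, all lower, where 48.2% of all probe sets had a lower mean and 2.7% passed as lower. They were probe sets of Psma5 (-0.52), Psmc2 (-0.53), Psmc4 (-0.43), Psmd11 (-0.52) and Psmd13 (-0.49). For those of Psmc2, Psmc4 and Psmd11 all 10 females lay below all 10 males, which held for 0.99% of all probe sets. They were picked from the 5 that had passed the same comparison, so this is a description. Besides Psmb3, an opposite sign at an unadjusted p under 0.05 occurred for Psma1, whose second probe set lay near background (mean 3.22) at 0.15. The second probe set of Psmd6, a lid subunit, was at -0.33 (limma, adjusted p = 0.0186), where its brightest was at -0.05. Counting a gene by any of its probe sets, 15 of the 48 passed as lower, against 3.85% of all named genes counted in the same way.

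In control mice taken alone, only Psmb5 passed (1 of 48; limma, adjusted p under 0.003), where 1.54% of all named genes were lower and 1.59% higher. The median of the 48 was -0.30 and 36 had a lower mean in females, against 55.4% of all named genes. At an unadjusted p under 0.05, 26 were lower and 2, Psmb3 and Psmd3, were higher, against 8.89% and 13% of all named genes. The 5 females lay below the 5 males without overlap for 11 members and above them for 0, where this held for 4% and 4.77% of all named genes. Without FNo5 the count of called members was 5, and without M30-4, which changes only the shared estimate of spread, it was 3.

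In injected mice Psmb5 and Psmd1 passed (2 of 48), where 1.15% of all named genes were lower and 0.815% higher. The difference of Psmb5 was -0.54 (limma, adjusted p = 0.000181) and that of Psmd1 -0.50 (adjusted p = 0.0023). The median of the 48 was -0.26, 39 had a lower mean in females, against 32.6% of all named genes, and 24 were lower and 0 higher at an unadjusted p under 0.05, against 8.36% and 14.9%. Females lay below males without overlap for 13 members, 6 of them among the 7 standard beta subunits, and above for 0, where this held for 3.91% and 6.33% of all named genes. The count of called members was 5 without FNo5, 4 without F10-1 or M30-4, and 1 without M13, among other arrays, while Psmb5 passed in each of the 20 fits and Psmd1 in 8. With the Actb covariate neither passed (adjusted p = 0.0146 for Psmb5 and 0.0936 for Psmd1), and 0 of 48 passed by the methods' t-test after adjustment or in a fit of only these 10 arrays.

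The sex differences of control and injected mice, which share no animal, had the same sign in 43 of 48 members. In 35 both were negative and in 8 both were positive. Across the 48 genes, which are not independent, Pearson's r was 0.883 and Spearman's rho 0.874. The set of 31 core, base and cap genes was defined after values were seen. Among them, each of the 10 females lay below the mean of the males of her condition in 24 to 30. Each lay below all 5 of those males in 16 (FNo5) to 22 (F10-2). For these counts, and for the count of equal signs above, no share over all named genes was taken. Within groups of animals whose labels share a number prefix, the median difference over the 48 was -0.28 in control mice without a prefix (2 males, 2 females). It was -0.24 in those with the prefix 30 (3 males, 1 female) and -0.29 in injected mice without one (3 of each sex). Psmb5 was at -0.52, -0.39 and -0.52 in the same order, with too few animals for a test. Among animals without a prefix, the 5′ signal of the Pcx control probe set was 3.89 to 6.70 in males. It was 5.80 in FNo5 and 2.34 to 2.37 in the other females, so the sexes differed in that signal as well.

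No inducible subunit passed in a sex comparison, and all 3 were among the 4 members with the widest spread between animals of one group. Psmb8, Psmb9 and Psmb10 had averaged sex differences of -0.06, 0.15 and 0.23, and 0 of 3 passed by limma, with 0 at an unadjusted p under 0.05. Psmb9 was 7.22, 4.73, 5.17, 4.96 and 4.75 in control males and 5.71, 5.74, 5.44, 5.26 and 5.83 in control females. It was 6.10, 6.91, 5.25, 4.25 and 5.27 in injected males and 5.75, 5.52, 5.00, 6.18 and 5.72 in injected females. The high males were M30-1 among controls and M30-3 and M30-4 among injected mice, and these 3 were also the highest males for Psmb8, Psmb10 and Psme1. The pooled SD within groups was 0.766 for Psmb9, the largest of the 48, 0.478 for Psmb10, 0.461 for the lid gene Psmd7 and 0.448 for Psmb8, while the class median was 0.144 for the standard beta subunits.

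M30-1 had Psmb8 at 7.14, where the other control males were at 5.43 to 5.91, and Psmb10 at 8.14, where they were at 6.90 to 7.15. The mean of the 3 inducible subunits in M30-1 lay 1.13 above their average over all 20 arrays, followed by M30-4 at 1.11 and F10-3 at 0.53, and M9 was lowest at -0.80. In the same scale, a list of 10 leukocyte markers was at 0.19 in M30-1, 1.00 in M30-4, 1.65 in F10-3 and -0.34 in M9. A list of 9 antigen presentation genes was at 0.29, 0.42, 0.25 and -0.21, and a list of 10 interferon response genes at 0.39, 0.27, 0.46 and -0.31. These animals were not the extremes of the interferon list. It was highest in F4 (0.66), F3 (0.60) and F10-1 (0.57), where the inducible subunits were at 0.14, -0.01 and 0.04. It was lowest in M30-2, M13, M30-5 and M12 (-0.86 to -0.72), where they were at -0.52 to -0.41. The summed log2 level of the leukocyte markers was 61.2 to 69.3 in control males, 65.6 to 70.3 in control females, 64.0 to 77.5 in injected males and 64.8 to 84.0 in injected females. The part of immune cells in these levels was not tested.

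**Figure D3:**
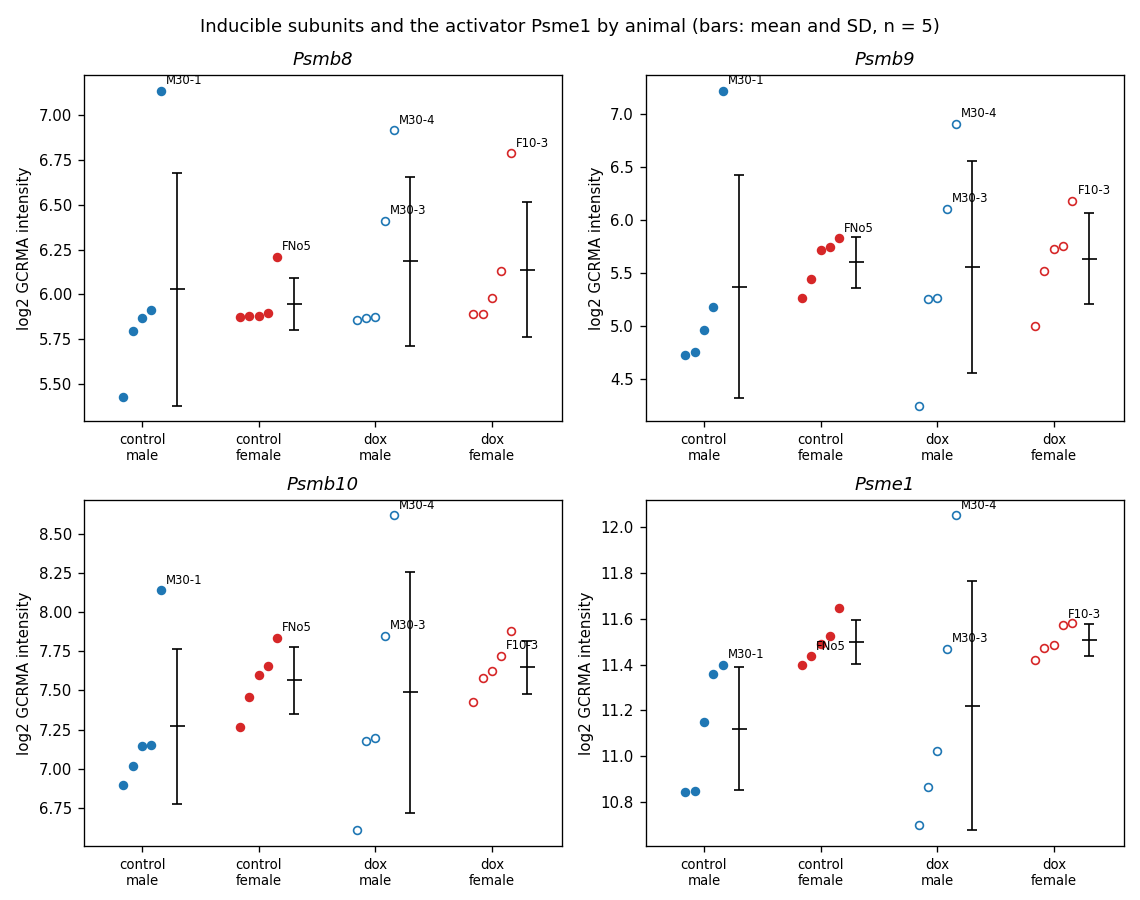
Level (log2 intensity) of Psmb8, Psmb9, Psmb10 and Psme1 in each animal, with group mean and SD; filled points are control and open points doxorubicin injected mice. M30-1 stands above the other control males in the inducible subunits, with Psmb9 at 7.22.

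Psme1, a subunit of the interferon-inducible activator, was 11.40, 10.85, 11.36, 11.15 and 10.84 in control males and 11.40, 11.53, 11.49, 11.65 and 11.44 in control females. It was 11.47, 12.05, 11.02, 10.70 and 10.87 in injected males and 11.47, 11.58, 11.42, 11.57 and 11.49 in injected females. In controls F1 and M30-1 met at 11.40, and in injected mice M30-4 was above all females. The averaged difference was 0.33 (limma, adjusted p = 0.105), so no sex difference passed the test.

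The balance of inducible to standard subunit was taken within each array as the log2 difference of each pair that occupies the same site. For Psmb10 minus Psmb7 it was -4.63 ± 0.21 (SD, n = 5) in control females and -5.39 ± 0.60 in control males, higher in females by 0.76 (two-sided exact permutation test, p = 0.0397, 0.349 after adjustment over 12 comparisons). After injection the difference was 0.74 (exact permutation p = 0.0714, adjusted 0.349). None of the 12 comparisons, 3 pairs by sex in each condition and by doxorubicin in each sex, passed after adjustment. For Psmb8 minus Psmb5 the sex differences were 0.41 and 0.50, and for Psmb9 minus Psmb6 0.25 and 0.34. A pair can move by either subunit. In control males and females, Psmb8 had means of 6.03 and 5.95 and Psmb5 12.23 and 11.74, so that difference lay in the standard subunit. Psmb10 had 7.27 and 7.56 and Psmb7 12.66 and 12.20, so both entered. Psmb9 had 5.37 and 5.60 and Psmb6 11.92 and 11.89, so there it lay mostly in the inducible subunit.

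These values in control mice rested on M30-1. Without it, the 5 control females were above the other 4 control males in all 3 pairs, by 0.69 for Psmb8 minus Psmb5, 0.75 for Psmb9 minus Psmb6 and 1.03 for Psmb10 minus Psmb7, each at an exact permutation p of 0.00794, the smallest that 4 against 5 can give, and 0.0317 adjusted. M30-1 itself was at -5.11 and -4.56 for the Psmb8 and Psmb9 pairs, above all 5 females, and at -4.34 for the Psmb10 pair, where the females reached -4.32. It was left out after its values were seen, so these are a description. The lower levels of the standard subunits Psmb5 and Psmb7 in females enter these values too.

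**Figure D4:**
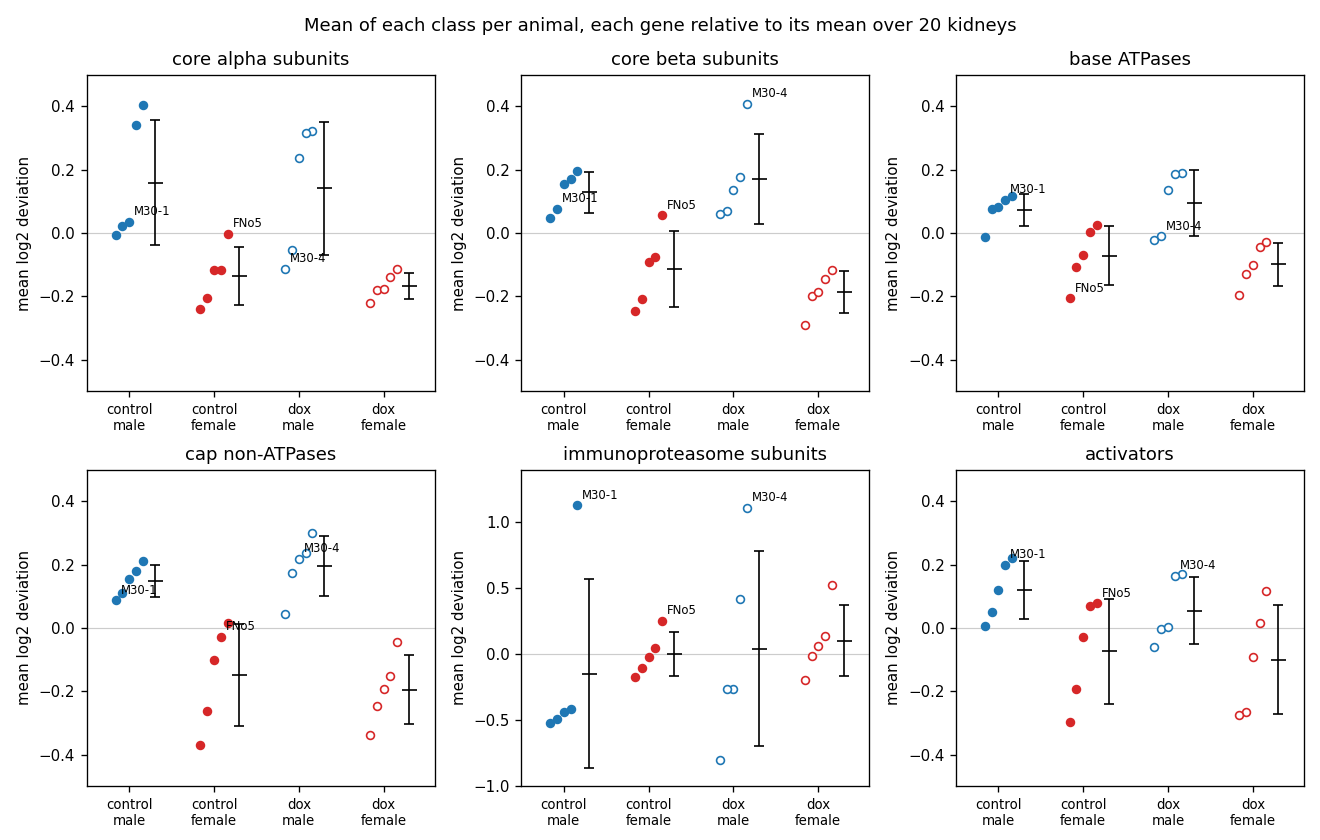
Mean deviation (log2) of each class of proteasome genes from its average over all 20 arrays, 1 point per animal; filled points are control and open points doxorubicin injected mice. The inducible subunits spread widest, from -0.80 in M9 to 1.13 in M30-1.

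Doxorubicin changed no member past the test in either sex. In males, 0 of 48 passed (limma, adjusted p under 0.03), where 0.0646% of all named genes did, and at an unadjusted p under 0.05 there were 2, both higher, against 3.95% of all named genes lower and 4.51% higher. These were Psmb6, at 0.16 (adjusted p = 0.506), and the ATPase gene Psmc3, at 0.14 (adjusted p = 0.539). In females 0 of 48 passed (limma, adjusted p under 0.04), where 0.0242% of all named genes did, and 0 had an unadjusted p under 0.05, against 2.14% lower and 2.44% higher. Control and injected groups overlapped for all 48 members in both sexes, where 0.694% of all named genes were lower and 1% higher without overlap in males, and 0.726% and 0.718% in females. The methods' t-test also called 0 in both sexes. The median difference was 0.03 in males and -0.01 in females.

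The 95% intervals are for each gene alone, without adjustment over all probe sets. They do not give the size of change that the adjusted test could miss. Psmb5 was at 0.01 (95% interval -0.14 to 0.16) in males and -0.04 (-0.19 to 0.11) in females. Psmd1 in females was at -0.19 (-0.38 to 0.00). Psmb9 in males was at 0.19 (-0.81 to 1.19), an interval that holds a doubling. The lowest and highest differences were -0.23 (Psmc6) and 0.23 (Psmd4) in males and -0.32 (Psmd7) and 0.19 (Psmb8) in females.

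No member passed for a difference between the sexes in the doxorubicin response by limma (0 of 48 at an adjusted p under 0.05). By their brightest probe set, 0% of all named genes passed, so this count does not set the members apart. The estimates ran from -0.32 (Psmd3) to 0.35 (Psmc6). At an unadjusted p under 0.05 there was 1, Psmb6, with a difference of -0.24, female minus male response (adjusted p = 0.627), against 3.33% of all named genes negative and 3.53% positive. Its levels were 11.78, 12.02, 11.89, 11.82 and 12.07 in control males and 11.92, 12.28, 12.11, 12.07 and 12.02 in injected males. They were 11.96, 11.81, 11.88, 11.87 and 11.95 in control females and 11.76, 11.81, 11.86, 11.82 and 11.83 in injected females, so both pairs of groups overlapped.

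**Figure D5:**
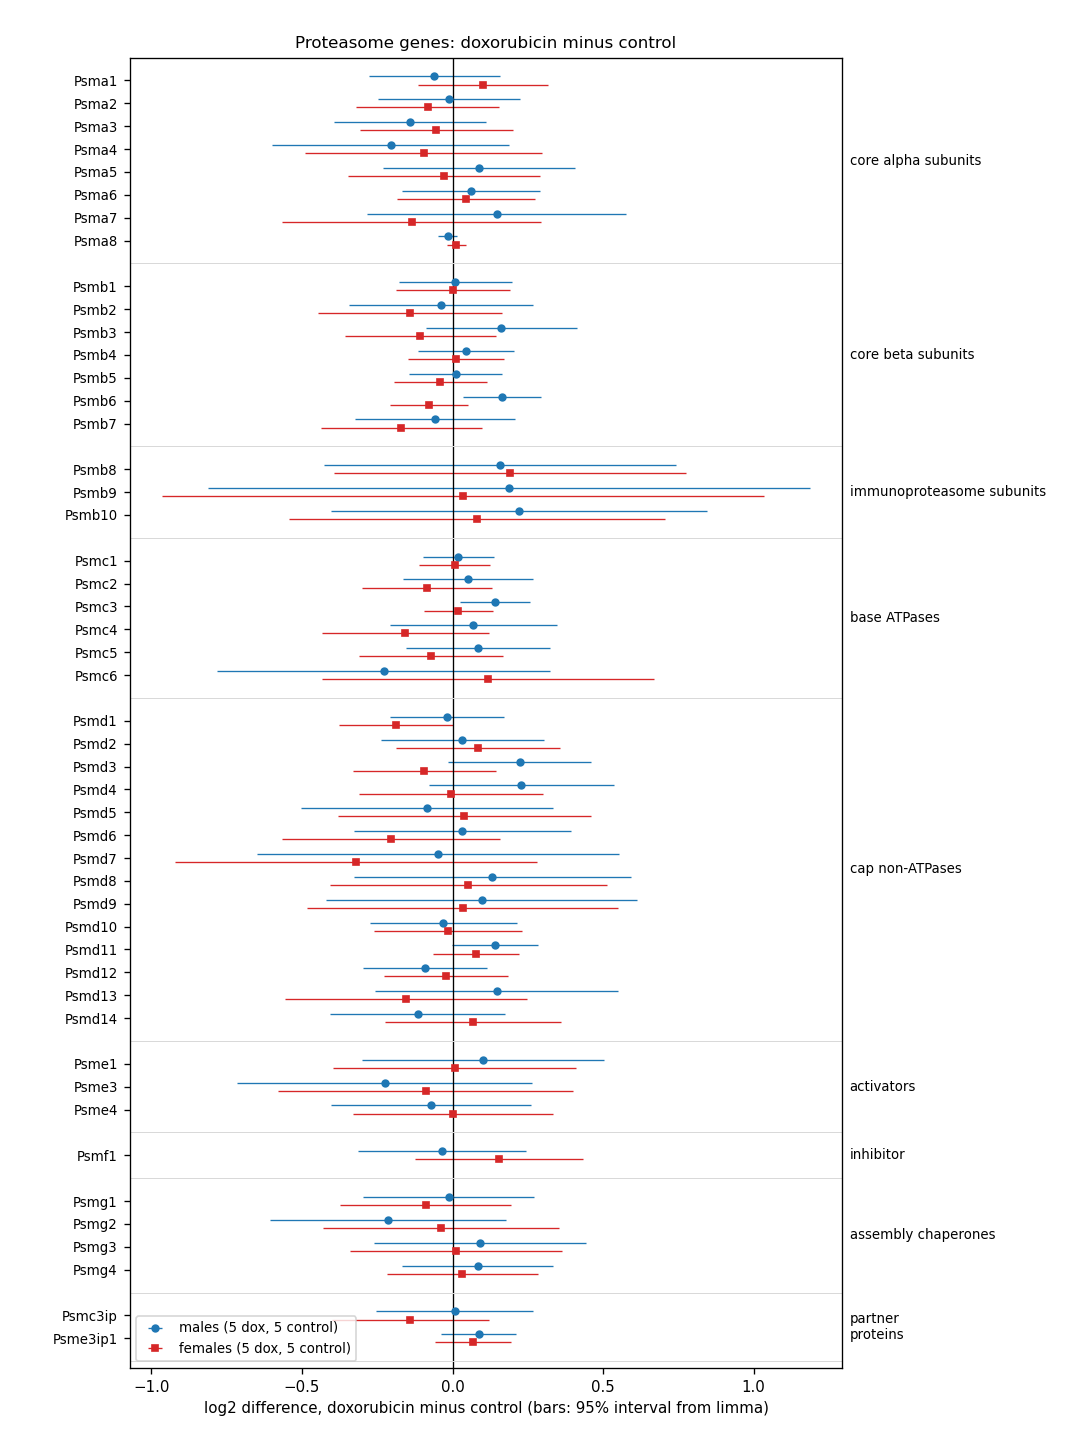
Doxorubicin minus control difference (log2) of each of the 48 proteasome genes by class, in males (circles) and females (squares), with 95% intervals. The differences lie between -0.32 and 0.23, and none passed the test.

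Genes that work with the proteasome were read from lists by the same fit, averaged over both conditions, where 3.12% of all named genes were lower and 3.47% higher. Of 8 shuttle and unfoldase genes 3 were lower in females: Vcp, the ATPase that extracts ubiquitinated proteins (-0.42; limma, adjusted p = 0.000576), its cofactor Nploc4 (-0.60, adjusted p = 0.000123) and the autophagy receptor Sqstm1 (-0.89, adjusted p = 0.000523). Of 8 proteasome partners outside the Psm symbols, Usp14, a deubiquitinating enzyme of the cap, was lower (-0.44, adjusted p = 0.000526), and the lid subunit Sem1 was at 0.31 (adjusted p = 0.0125). Of 8 regulators of proteasome genes 1 was lower, Nfya (-0.77), a subunit of the factor that binds the CCAAT box. Its means were 8.41 and 7.20 in control males and females and 7.70 and 7.36 in injected ones. The sex difference of Nfya passed in control mice, where 1.54% of all named genes were lower, and not after injection, where 1.15% were. Nfya was also lower in injected than in control males, at -0.71 (limma, adjusted p = 0.0276), against 0.0242% of all named genes. It was the only gene of these 8 that passed for doxorubicin. For the difference of the doxorubicin responses, 0 of the 8 passed.

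All 7 NRF2 targets had lower means in females, against 43.1% of all named genes, with a median of -0.91, and 2 passed: the glutathione reductase Gsr (-0.42; limma, adjusted p = 0.000293) and Gclc, which makes glutathione (-1.07, adjusted p = 0.00164). None passed among 9 antigen presentation genes (median 0.05), 9 genes of the unfolded protein response (0.06), 9 cytosolic chaperones (-0.13), 8 subunits of the CCT chaperonin (-0.06) and 15 genes of autophagy and the lysosome (-0.17). The smallest p-values in these lists were those of Pdia3 (0.39, adjusted p = 0.0897), Hsp90b1 (0.44, adjusted p = 0.0445), Dnaja1 (-0.41, adjusted p = 0.0609), Cct5 (-0.17, adjusted p = 0.0109) and Atg12 (-0.37, adjusted p = 0.00622), in that order. Of 10 interferon response genes (median 0.38) 1 passed, Gbp3, which was higher in females by 3.23. At an unadjusted p under 0.05 by limma, 5 were higher and 0 lower, against 19.6% and 11.5% of all named genes. For doxorubicin, all 10 had higher means in injected males (median 0.52), where 59.5% of all named genes had lower ones, and 0 passed. Averaged over both sexes 1 passed as higher (limma, adjusted p under 0.03), against 0.00807% of all named genes.

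Cell type markers moved with sex as well, where averaged over both conditions 3.12% of all named genes were lower and 3.47% higher in females. Both markers of the distal convoluted tubule, 1 of 4 of the podocyte (Synpo) and 1 of 6 of the endothelium (Tek) were higher in females, while of 6 proximal tubule markers 1 was lower (Slc22a6) and 1 higher (Cubn). In control mice alone, 2 of 4 podocyte markers (median 1.07) and 3 of 6 endothelial markers (median 0.92) were higher in females, against 1.59% of all named genes. After injection 0 of either passed by limma (medians 0.18 and 0.20), against 0.815% of all named genes. At an unadjusted p under 0.05, 0 of 4 and 2 of 6 were higher after injection, against 14.9%. None of 10 leukocyte, 3 collecting duct, 2 thick ascending limb, 2 adipocyte or 2 red cell markers passed. The part of cell composition in the lower proteasome levels was not tested.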

How the data were processed

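Total RNA of whole kidney was extracted with Trizol, labelled by the One Cycle method and hybridised to 1 array per numbered kidney sample. The deposited values are linear intensities that the authors made by GCRMA in Array Assist; the software version is not given in the sources used here. They were taken as log2 of the deposited intensity, with no further scaling. The labels give each sample its own animal number, and the p-values measure the spread between these samples, whose number limits the precision. Of 22690 probe sets, 64 controls were left out. Of the other 22626, 20380 name 1 gene, 691 name several and 1555 none, by the platform annotation.

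A single model of the 4 groups was fitted with limma 3.58.1 in R 4.3.3 over 20 arrays with 16 residual degrees of freedom, and p-values of all 22626 probe sets were adjusted by Benjamini and Hochberg's method. The study's methods name SAM and Student's t-test. SAM was not run; limma was used at false discovery rates of 0.003 for sex, 0.03 (male mice) and 0.04 (female mice) for the drug, and 0.05 for the interaction, and the methods' t-test was an alternative. Python 3.11.15, pandas 2.3.3, numpy 2.4.6 and scipy 1.17.1 served for the exact permutation tests and summaries. The script was tested on simulated data.

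The genes, lists and tests were chosen with earlier results of these data known. Any member could be named; fuller values went to members past a threshold, the catalytic subunits and their inducible partners, the extremes of each class in the averaged sex difference, and members whose probe sets disagreed or whose second probe set passed. Of other lists, genes past the threshold or else those of smallest p were named; other animals and genes were singled out after their values were seen. The set of 31 core, base and cap genes and the lid set were defined after values were seen. The background level of 2.84 was the 95th percentile of Y-linked probe sets in females. Alternatives were other thresholds, tests, scalings, filters, probe set rules, the number prefix as a block, RNA quality covariates, and leaving out arrays. Protein identity between subunits was not run. Some genes of the lists are not reported here.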

Additional observations from a re-analysis of the deposited data

Results flagged for a closer look

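In 68 sets of 5 animals (17 members in 4 groups), an animal was set apart when its gap to the nearest other animal exceeded a share of 0.71 of the group's range, and 9 were found; chance alone sets an animal apart in about 1 in 20 such groups. Among control males M30-1 was high for Psmb8 (7.14, others 5.43 to 5.91), Psmb9 (7.22, others 4.73 to 5.17) and Psmb10 (8.14, others 6.90 to 7.15), and M30-2 for Psmb2 (10.26, others 9.74 to 9.87). Among control females FNo5 was high for Psmb8 (6.21, others 5.88 to 5.89) and low for Psmc1 (10.76, others 10.96 to 10.99). Among injected males M30-3 was low for Psmd4 (11.42, others 11.96 to 12.17). Among injected females F10-3 was low for Psmb7 (11.78, others 12.06 to 12.13) and high for Psmb8 (6.78, others 5.89 to 6.13).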

How the results depend on the processing

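All counts of called members in the doxorubicin comparisons and in the difference of the responses were 0 under every alternative run. No share over all named genes was taken for the alternatives, so the counts below stand without one. For sex in control mice (1 called), the count was 12 at an adjusted p under 0.05, 13 by the methods' t-test at an unadjusted p under 0.01, 2 with only the arrays compared, 3 with the number prefix as a block, 0 with the Actb covariate, 9 without FNo5 and M30-4, 0 in the 14 arrays without 5′ Pcx signal and 0 in animals without a prefix; leaving out 1 array gave 1 to 5, with 5 without FNo5 and 3 without M30-4. For sex after doxorubicin (2 called), it was 16 at an adjusted p under 0.05, 0 by the methods' t-test after adjustment and 18 at an unadjusted p under 0.01, 0 with only the arrays compared, 1 each with a trended robust prior, quantile normalization, the upper 60% of probe sets and the Gapdh covariate, 4 with the block, 0 with the Actb covariate, 4 with the mean of all probe sets, 7 without FNo5 and M30-4, 0 in the 14 arrays, 4 in animals without a prefix, and 1 with block and Actb together. Leaving out 1 array gave 1 to 5 there: 5 without FNo5, 4 without F10-1 or M30-4, 1 without M13, F1, F30-6, M7, M9, M11 or any injected female, and 2 without any other array.

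Averaged over both conditions (11 called), the count was 27 at an adjusted p under 0.05, 3 with the Gapdh covariate, 1 with Actb, 12 with the block (of which 4 were among the 11), 23 without FNo5 and M30-4, 6 in the 14 arrays, and 2 with block and Actb together. Leaving out 1 array gave 6 to 18: 18 without M30-4, 7 without M12, F10-1, F3 or F10-3, and 6 without F10-2 or M7. Psmb5 passed in 20 of 20 such fits in each sex comparison, and Psmb1, Psmb4, Psmb7, Psmd1 and Psmd7 in 20 of 20 averaged, but Psmd13 in 14, Psmd10 in 12, Psmd4 in 11, Psmc1 in 5 and Psmb2 in 4.

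Medians over the 48 genes remained negative for sex, at -0.36 to -0.21 in control mice, -0.30 to -0.18 after doxorubicin and -0.33 to -0.19 averaged. In control mice (-0.30) the median was -0.23 with the Gapdh covariate, with Actb, and with block and Actb together, -0.22 with the mean of all probe sets and -0.21 in the 14 arrays. After doxorubicin it was -0.18 with Actb. Averaged, it was -0.20 with Actb and with the mean of all probe sets, and -0.19 in the 14 arrays. For the pairs in control mice, leaving out 1 array gave 0.29 to 0.69 for Psmb8 minus Psmb5, 0.061 to 0.75 for Psmb9 minus Psmb6 and 0.66 to 1.03 for Psmb10 minus Psmb7. The alternatives by 14 arrays, by animals without a prefix and by block and Actb together were chosen after seeing the data. The cause was not tested for any of these. No paired analysis was possible because the groups share fewer than 2 animal numbers.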

Other observations

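The probe set shared by Psme2 and Psme2b, which together with Psme1 stand for the interferon-inducible activator, was outside the rule because it names several genes. Its means were 10.55 ± 0.17 in control males, 10.60 ± 0.15 in control females, 10.63 ± 0.25 in injected males and 10.60 ± 0.06 in injected females (SD, n = 5).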
